A study of Mus musculus with 8 samples.

Results

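The 7 genes described here encode the activating arm of the circadian clock and the nuclear receptors that set its level: Arntl, Clock and Npas2, the REV-ERB genes Nr1d1 and Nr1d2, and the ROR genes Rora and Rorb. They are 7 of 20352 genes measured in mouse cerebellum at an age of 28 days, in 4 wild-type and 4 Cic-L-null samples with 1 Affymetrix Mouse Gene ST array each. The labels do not say whether the samples of a group are separate animals, so every error and p-value measures the spread between these samples, part of which may be technical. Both groups carry a mixed Swiss Webster (CD-1) background, and the mutants are labelled by genotype as Cic-L-null and by title as Cicnull; Cic encodes Capicua, a transcriptional repressor. The labels give no promoter, no cell type restriction of the mutation, and no hour of tissue collection. The genes were chosen by their known roles after Nr1d1 and other clock genes had been seen to differ between these same samples. The differences between genotypes are therefore given as a description, with standard errors and without a test of their own. Cic itself averaged 8.78 ± 0.28 log2 units over the wild-type and 7.54 ± 0.061 over the Cic-L-null arrays (SD, n = 4), with all 4 mutants below all 4 wild-types.

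In the circadian feedback loop, BMAL1, the product of Arntl, pairs with CLOCK or its relative NPAS2 and binds E-box elements to switch on the period and cryptochrome genes, the REV-ERB genes and output genes such as Dbp. REV-ERB proteins, which recruit the corepressor NCOR and the deacetylase HDAC3, and ROR proteins, which activate, bind the same response element, called RORE, in Arntl and other genes of the activating arm. In cerebellum RORA is also known for its part in the development and upkeep of Purkinje cells, where its loss causes the staggerer phenotype, and it has been reported in a complex with ataxin-1, a partner of Capicua. Transcript levels of Nr1d1 and Arntl normally peak at opposite times of day.

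The response element was sought as letters near gene starts. Binding of REV-ERB or ROR was not measured, so whether a match links them to a gene was not tested. The letters GTAGGTNA, which extend the shared AGGTCA core of the family by the bases known from Arntl and were taken after its window had been looked at, were searched on both strands in windows of 300 bases, 250 before and 50 after each RefSeq transcript start of GRCm38.p6. They occurred in 2.14% of 32851 windows, and Arntl was the single member that held them. Nfil3 and Fabp7, reported REV-ERB targets outside the 7 genes, held them too. Each sequence is printed 5′ to 3′ on the strand that carries the motif, with the match in capitals.

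Arntl, chr7:113207493-113207522, plus strand: ttggtcggaaaGTAGGTTAgtggtgcgaca
Arntl, chr7:113207529-113207558, plus strand: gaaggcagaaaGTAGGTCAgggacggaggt
Nfil3, chr13:52981033-52981062, plus strand: gatgtgtgttaGTAGGTCAgttccgagcgc
Fabp7, chr10:57784741-57784770, minus strand: gggttagcggaGTAGGTCAagatcctccca

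The first Arntl match begins 7 bases before the later of the RefSeq starts of the gene and the other lies after it. Read along the gene, the Nfil3 match begins 12 bases and the Fabp7 match 171 bases before the start. The shorter core AGGTCA occurred in 16.3% of all windows. It was present in a window of Clock and in that of Nr1d2, printed here because Nr1d2 is itself a member of the receptor family, and it also lies inside the second Arntl, the Nfil3 and the Fabp7 sites.

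Clock, chr5:76303604-76303633, plus strand: ctgtcatctgtcAGGTCAgaggccaaagct
Nr1d2, chr14:18239166-18239195, minus strand: gattggaagaagAGGTCAggaccgctcgtt

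The E-box letters CACGTG were present in 7.15% of all windows and in 0 of the 11 windows of the 7 genes. The Capicua site letters TGAATGAA and TGAATGGA, present in 1.3% and 1.21% of all windows, were likewise in 0 of these 11. A match in such a window describes letters only, and elements farther from the start were not searched.

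The REV-ERB genes were higher in the mutants, the 3 activator genes were lower, and Rora was slightly higher. Nr1d1, whose protein represses Arntl, had log2 values of 10.07, 10.10, 10.06 and 10.19 in the wild-type replicates 1 to 4 and 10.79, 10.64, 10.96 and 10.65 in Cic-L-null replicates 1 to 4. The groups did not overlap, and the lowest mutant lay well above the highest wild-type. The mean rose from 10.10 ± 0.057 to 10.76 ± 0.15 (SD, n = 4), a difference of 0.66 (SE 0.079), or 1.58-fold. Nr1d1 was the single member called by limma at an adjusted p under 0.05 over all genes, 1 of 7, where 0.138% of all genes were called. That call was lost in 6 of the 8 fits that left out an array, all except those without wild-type replicate 1 and without Cic-L-null replicate 3, with limma's adjusted p between 0.0264 and 0.076 over the 8. It was also lost when probe sets were combined by their median (limma adjusted p = 0.0635). The difference itself stayed between 0.59 and 0.70 in the alternatives tried.

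Nr1d2 encodes REV-ERB beta, the second repressor of the pair. Its values were 9.55, 9.30, 9.19 and 9.50 in the wild-type and 9.65, 9.43, 9.99 and 9.94 in the Cic-L-null replicates 1 to 4. Cic-L-null replicates 1, 3 and 4 stood above every wild-type array, whereas Cic-L-null replicate 2 lay inside the wild-type range. The means were 9.38 ± 0.17 and 9.75 ± 0.26 (SD, n = 4), and the difference was 0.37 (SE 0.13). Without Cic-L-null replicate 3 it was 0.29, and without wild-type replicate 1 it was 0.42.

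Arntl, the gene of BMAL1, had values of 9.19, 9.57, 9.31 and 9.30 in the wild-type and 9.38, 8.88, 8.53 and 8.93 in the Cic-L-null replicates 1 to 4. Cic-L-null replicate 1 lay within the wild-type range and the other 3 mutants below it, so the groups overlapped. The means were 9.34 ± 0.16 and 8.93 ± 0.35 (SD, n = 4), a difference of -0.41 (SE 0.15). It was -0.56 without Cic-L-null replicate 1 and -0.28 without Cic-L-null replicate 3. Arntl lies on chromosome 7, as does Cic, at 113178471 to 113314126 against 25267658 to 25294159 (GRCm38.p6).

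Npas2, which can stand in for CLOCK as the partner of BMAL1 and is best known from forebrain, was lower in each mutant than in each wild-type. Its values were 7.30, 7.18, 7.26 and 7.30 in the wild-type and 6.89, 6.79, 6.67 and 7.09 in the Cic-L-null replicates 1 to 4. The means were 7.26 ± 0.057 and 6.86 ± 0.18 (SD, n = 4), a difference of -0.40 (SE 0.086). With the median of its probe sets as gene value in place of the mean, the difference was -0.19.

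Clock, the gene of the acetyltransferase that pairs with BMAL1, had values of 10.04, 10.03, 9.97 and 9.96 in the wild-type and 9.89, 9.76, 9.64 and 9.87 in the Cic-L-null replicates 1 to 4. The groups did not overlap, and the gap between the nearest arrays was small. The means were 10.00 ± 0.042 and 9.79 ± 0.12 (SD, n = 4), and the difference was -0.21 (SE 0.068), or 1.16-fold lower.

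Rora had values of 10.82, 10.79, 10.72 and 10.72 in the wild-type and 10.94, 10.89, 10.91 and 10.96 in the Cic-L-null replicates 1 to 4. All mutants lay above all wild-types within a narrow range. The means were 10.76 ± 0.048 and 10.93 ± 0.032 (SD, n = 4), a difference of 0.16 (SE 0.054), or 1.12-fold. Rorb, a ROR gene best known from retina, pineal gland and cortex, had values of 7.25, 7.06, 7.03 and 7.01 in the wild-type and 7.19, 7.14, 7.04 and 7.13 in the Cic-L-null replicates 1 to 4. The groups overlapped, and the difference was 0.040 (SE 0.068). Wild-type replicate 1, the array whose label names a different RNA extraction from the other 7, was the highest, and without it the difference was 0.093.

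**Figure D1:**
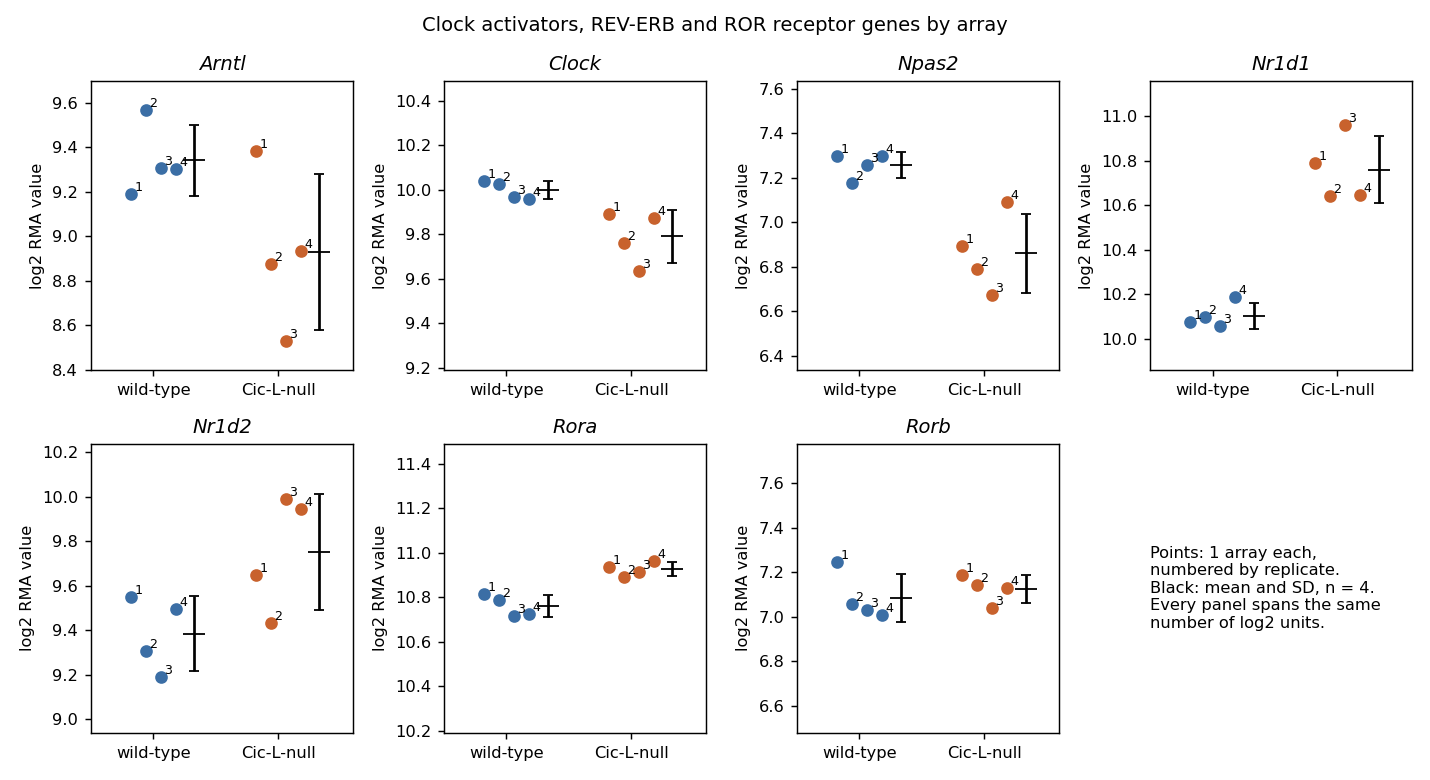
Log2 RMA value of each of the 7 genes (y axis, the same number of log2 units in each panel) in 4 wild-type and 4 Cic-L-null arrays (x axis); points are single arrays numbered by replicate, and black bars are the mean and SD. Nr1d1, Rora, Clock and Npas2 show no overlap between the groups, and Cic-L-null replicate 3 has the highest Nr1d1 and Nr1d2 and the lowest Arntl, Clock and Npas2 value.

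The groups lay apart in 4 of the 7 genes, as they did in 5.94% of all genes. Nr1d1 and Rora were higher, where 3.02% of all genes were higher without overlap, and Clock and Npas2 were lower, where 2.91% were. Since the genes were chosen with this contrast known, nothing is read from these counts. In tissue of many cell types, fewer cells of a type and less RNA per cell cannot be told apart.

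The balance between repressor and activator transcripts within an array combined the opposed differences. The log2 value of Nr1d1 minus that of Arntl was 0.89, 0.53, 0.75 and 0.88 in the wild-type and 1.41, 1.77, 2.43 and 1.71 in the Cic-L-null replicates 1 to 4. No mutant overlapped the wild-types, as for Nr1d1 alone, while the groups of Arntl alone overlapped. The means were 0.76 ± 0.17 and 1.83 ± 0.43 (SD, n = 4). For Nr1d1 minus Npas2 the means were 2.85 ± 0.069 and 3.90 ± 0.30, and for Nr1d1 minus Clock 0.11 ± 0.085 and 0.97 ± 0.24 (SD, n = 4), both without overlap. Rora minus Nr1d1, the activator against the repressor of the same element, fell from 0.66 ± 0.086 to 0.17 ± 0.16 (SD, n = 4). The level of a difference between genes depends on their probes, so only its change between the groups can be described. Nr1d1 enters each of these balances and was known to differ, so their separation restates known differences and nothing further is read from it.

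Probe sets along each transcript showed whether a gene moved as a whole. All 8 probe sets of Nr1d1 were higher in the mutants and did not overlap, with differences from 0.55 to 0.76 and a median of 0.65. Among all probe sets that name a single gene, 2.44% were higher without overlap and 1.94% lower without overlap. Each gene value is the mean of its probe sets, and the genes were chosen with this contrast known. The counts of probe sets here and below are therefore a description, and nothing further is read from them. A further probe set is shared by Nr1d1 and Thra, a thyroid hormone receptor gene whose 3′ end overlaps that of Nr1d1 on the opposite strand, and it did not enter either gene. It averaged 10.77 over the wild-type and 11.39 over the Cic-L-null arrays, a difference of 0.62. Thra by its own probe sets averaged 10.43 ± 0.053 over the wild-type and 10.70 ± 0.12 over the Cic-L-null arrays (SD, n = 4), a difference of 0.27 (SE 0.070) without overlap.

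All 7 probe sets of Nr1d2 were higher, by 0.24 to 0.45, and 4 of them did not overlap. All 22 probe sets of Arntl were lower, with a median of -0.36, but only 6 did not overlap. The lowest Arntl difference, -1.40 (SE 1.23), came from a probe set whose mean over all arrays was below 6.21, the limit for dim signal set by olfactory receptor genes (6.75 in wild-type, 5.34 in Cic-L-null arrays). For Clock, 24 of 25 probe sets were lower with a median of -0.22, 9 of them without overlap, and the exception was a dim one at 0.20 (SE 0.42).

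Npas2 was less even along its length. Of its 22 probe sets, 20 were lower, 5 of them without overlap, over a range from -0.97 to 0.31 with a median of -0.40. Dim sets made up 4 of the 22, among them those at both ends of the range. The lowest, at -0.97, and another dim set at -0.84 were among the 5 without overlap. Rora had 14 of 15 probe sets higher with a median of 0.13. Its probe set 10586702 stood apart at 0.75 (SE 0.18) without overlap, from 7.97 in wild-type to 8.71 in Cic-L-null arrays, while the others lay between -0.056 and 0.23. Rorb had 10 of 16 probe sets higher and 6 lower, from -0.36 to 0.55. The annotation does not say which exon or isoform a probe set covers.

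**Figure D2:**
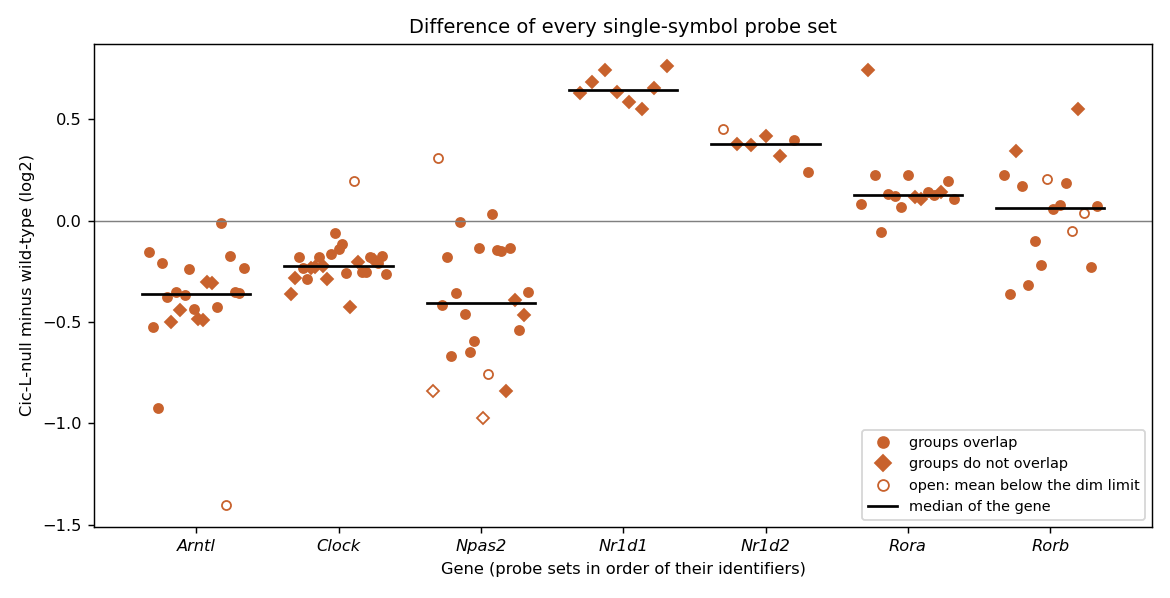
Difference of Cic-L-null minus wild-type means in log2 units (y axis) for every probe set that names 1 of the 7 genes alone (x axis, in identifier order); diamonds mark groups that do not overlap, open symbols probe sets below the dim limit, and black lines the median. All Nr1d1 sets lie between 0.55 and 0.76, all Arntl sets below 0, and 1 Rora set stands apart at 0.75.

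The listed genes repressed through the RORE in the clock loop include the 3 activator genes themselves, with Cry1 and Nfil3 as the measured others. Of 6 listed targets 5 were measured, and all 5 differences were below 0 (median -0.22, against -0.0071 over all genes). Where groups lie apart, that sign cannot change when an array is left out. None was called over all genes, where 0.138% of all genes were. The 3 activator genes were chosen with this contrast known, so nothing is read from the count below 0. Cry1, a cryptochrome gene that has both E-box and RORE input, had values of 9.22, 9.11, 9.15 and 9.24 in the wild-type and 8.92, 8.99, 9.01 and 8.91 in the Cic-L-null replicates 1 to 4, lower without overlap (difference -0.22, SE 0.057). Nfil3, a repressor that opposes DBP at D-box elements, differed by -0.16 (SE 0.094), and its groups overlapped. All 5 remained below 0 when any array was left out.

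Targets reported outside the loop went in both directions. Of 7 listed, 6 were measured, with 3 above and 3 below 0 and a median of 0.020. Fabp7, a brain fatty acid binding protein gene that REV-ERB alpha is reported to repress, was called lower, as 0.0491% of all genes were, from 10.39 ± 0.27 to 9.22 ± 0.21 (SD, n = 4), a difference of -1.17 (SE 0.14). Its call (limma adjusted p = 0.018) was lost in 3 of the 8 fits that left out an array, those without wild-type replicate 2 and without Cic-L-null replicates 2 or 4, where the adjusted p was at most 0.0682. Fabp7 is also a marker of Bergmann glia. All 8 of 8 markers listed for Bergmann glia and astrocytes were below 0, as were 10795 of 20352 genes, and 4 of the 8 were lower without overlap, where 2.91% of all genes were, among them S100b at -0.36 (SE 0.090) and Gdf10 at -0.33 (SE 0.073). The mean of this list, with Fabp7 in it, was 9.81 to 9.98 in wild-type and 9.56 to 9.65 in Cic-L-null arrays, and the part of glial content in the Fabp7 value was not tested.

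Th, the dopamine synthesis gene that REV-ERB alpha represses in midbrain, differed by 0.58 (SE 0.12), the reverse direction, and C4b, a complement gene reported to rise when REV-ERB alpha is lost from brain, differed by 0.40 (SE 0.15). Neither was called; the groups of Th lay apart and those of C4b overlapped. Lpl at -0.12 (SE 0.10), Ulk1 at -0.065 (SE 0.057) and Ccl2 at 0.10 (SE 0.071) had overlapping groups, and Lpl and Ccl2 were dim.

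Most E-box targets of CLOCK and BMAL1 had differences above 0, while those of Clock and Arntl themselves were below 0. Of 15 listed and measured genes, 13 were above 0 (median of all 15: 0.34) against 9557 of 20352 over all genes, and 4 were called higher, against 0.0884% of all genes. These were Per2, Per3, Dbp and, from the members, Nr1d1. Clock genes had been seen to differ before the list was drawn up, so nothing is read from these counts. Per2, a period gene whose protein restrains CLOCK and BMAL1, differed by 0.75 (SE 0.11), Dbp, an output transcription factor, by 0.64 (SE 0.090) and Per3 by 0.60 (SE 0.075). Bhlhe41, a repressor of E-box genes, differed by 0.50 (SE 0.13), Ciart, a repressor of the CLOCK and BMAL1 pair, by 0.47 (SE 0.13) and Tef, a relative of Dbp, by 0.34 (SE 0.066), none of them called. Cry1 and Wee1, a cell cycle kinase gene, at -0.11 (SE 0.11), were the 2 below 0. The count above 0 was 13 whichever array was left out. Of the 15 genes, 7 were higher and 1 lower without overlap, against 3.02% and 2.91% of all genes. Leaving out an array cannot change the sign of these. The count called fell to between 0 and 3. It was 3 without Cic-L-null replicate 3, 2 without replicate 1 of either genotype, and 0 when replicate 2 or 4 of either genotype or wild-type replicate 3 was left out. Per2 and Dbp each lost their call in 7 of the 8 fits and Per3 in 5.

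Genes that carry out REV-ERB and ROR function held no call, where only 0.138% of all genes were called, so nothing is read from that. Of 6 corepressor genes 5 were measured and all 5 were above 0, with a median of 0.14 and none called. Tbl1xr1, an adaptor of the NCOR complex, differed by 0.26 (SE 0.057) and Hdac3, its deacetylase, by 0.14 (SE 0.056), both without overlap, while Ncor1 itself differed by 0.074 (SE 0.080) and Tbl1x by 0.14 (SE 0.085). Genes that govern REV-ERB stability had a median of 0.039 over 6 genes, 4 above 0, with Siah2, a ubiquitin ligase gene, at -0.12 (SE 0.067) and Gsk3b, a kinase gene, at 0.11 (SE 0.072). The ubiquitin ligase genes Huwe1 at 0.087 (SE 0.063) and Mycbp2 at 0.053 (SE 0.057) overlapped as well.

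Coactivators and modifiers of CLOCK and BMAL1 had a median of 0.013 over 9 measured of 10 listed genes, 6 of them above 0. Csnk1e, a kinase gene that acts on period proteins, differed by 0.15 (SE 0.052) without overlap. Fbxl21, a ligase gene for cryptochromes, differed by -0.23 (SE 0.10), Crebbp by 0.093 (SE 0.071) and Kat2b by 0.080 (SE 0.072), the last pair being acetyltransferase genes, and these 3 overlapped. Genes of ROR coactivators were all above 0, 6 of 6, with a median of 0.084. Ppargc1a, which encodes a coactivator of RORA that drives Arntl, differed by 0.26 (SE 0.079) without overlap, Ppargc1b by 0.15 (SE 0.089), Ncoa2 by 0.11 (SE 0.071) and Med1 by 0.062 (SE 0.075).

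Among RORA targets known from Purkinje cells, of 5 genes 4 were above 0, with a median of 0.052, and every gene had overlapping groups. Pcp2 differed by 0.12 (SE 0.11), Pcp4 by -0.084 (SE 0.069), the glutamate transporter gene Slc1a6 by 0.053 (SE 0.073) and Shh, the mitogen for granule cell precursors, by 0.052 (SE 0.087). None of these 5 lists, from corepressors to RORA targets, held a call over all genes. With 0.138% of all genes called, the lack of a call does not show that these genes were unchanged. Among the further family members, Arntl2, the paralogue of Arntl, differed by -0.0051 (SE 0.086), with overlapping groups.

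Whether arrays with more REV-ERB transcript held less of its targets was compared within each genotype. It was tested on the deviations of the 8 arrays from their own group means, since Nr1d1 separates the genotypes and a pooled correlation would only restate that difference. For 2 REV-ERB genes and 11 measured targets, 22 pairs were compared with an exact two-sided permutation test within groups of 576 arrangements. None passed after Benjamini-Hochberg adjustment over the 22, and 2 had an unadjusted p under 0.05. The correlation was below 0 in 14 pairs and above 0 in 8.

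With its loop targets Nr1d1 gave r = -0.32 and rho = -0.12 for Arntl, with an exact permutation p of 0.635 (adjusted 0.777) and 0.799. For Clock r was -0.62 and rho -0.38, with an exact permutation p of 0.302 (adjusted 0.752) and 0.474. For Npas2 r was -0.58 and rho -0.24, with an exact permutation p of 0.33 (adjusted 0.752) and 0.681. Without wild-type replicate 4 and Cic-L-null replicate 3, the arrays whose Nr1d1 deviations lay farthest from the median, these values of r became 0.89, 0.59 and -0.21. Without Cic-L-null replicate 3 alone they were 0.65, 0.20 and -0.038, so the negative relations rested on that array. Without Cic-L-null replicate 1 they were -0.67, -0.81 and -0.60. When probe sets were combined by their median they were -0.17, -0.11 and -0.15. Cry1 and Nfil3 had r of 0.40 and 0.41 with Nr1d1, which became -0.36 and 0.038 without the 2 farthest arrays.

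Nr1d2 gave r = -0.46 and rho = -0.36 with Arntl, with an exact permutation p of 0.432 (adjusted 0.752) and 0.476. It gave r = -0.12 with Clock and 0.21 with Npas2, and without Cic-L-null replicates 2 and 3, the arrays farthest from the median, the 3 values were -0.71, 0.17 and 0.77. None of the 3 passed.

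C4b followed Nr1d1 most closely among the targets. Its values were 6.78, 6.71, 6.91 and 6.55 in the wild-type and 7.02, 7.35, 6.70 and 7.48 in the Cic-L-null replicates 1 to 4. In each group the array order of C4b was nearly the reverse of that of Nr1d1, with r = -0.98 and rho = -0.98 over the deviations and an exact permutation p of 0.00347 (adjusted 0.0764) and 0.00694 (adjusted 0.153). It was -0.96 within wild-type and -0.98 within Cic-L-null arrays, and -0.95 without wild-type replicate 4 and Cic-L-null replicate 3. With any 1 array left out it lay between -0.99 and -0.95. When probe sets were combined by their median, however, r was -0.28, so the close relation depends on how the probe sets are combined. Between the genotypes both Nr1d1 and C4b had higher means in the mutants, so the relation within groups and the difference between them run in opposite directions.

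Th had r = -0.61 and rho = -0.76 with Nr1d1, with an exact permutation p of 0.0781 (adjusted 0.573) and 0.0347 (adjusted 0.382). With Nr1d2 it had r = -0.72 and rho = -0.50, with an exact permutation p of 0.0451 (adjusted 0.497) and 0.205. Without the 2 arrays farthest from the median these were -0.62 and -0.56, and with the median of the probe sets -0.47 and -0.23. As for C4b, the mean of Th was higher in the mutants. Fabp7, the target with the largest difference between genotypes, ran the other way within them, with r = 0.56 and rho = 0.71 and an exact permutation p of 0.137 (adjusted 0.752) and 0.0521 (adjusted 0.382).

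**Figure D3:**
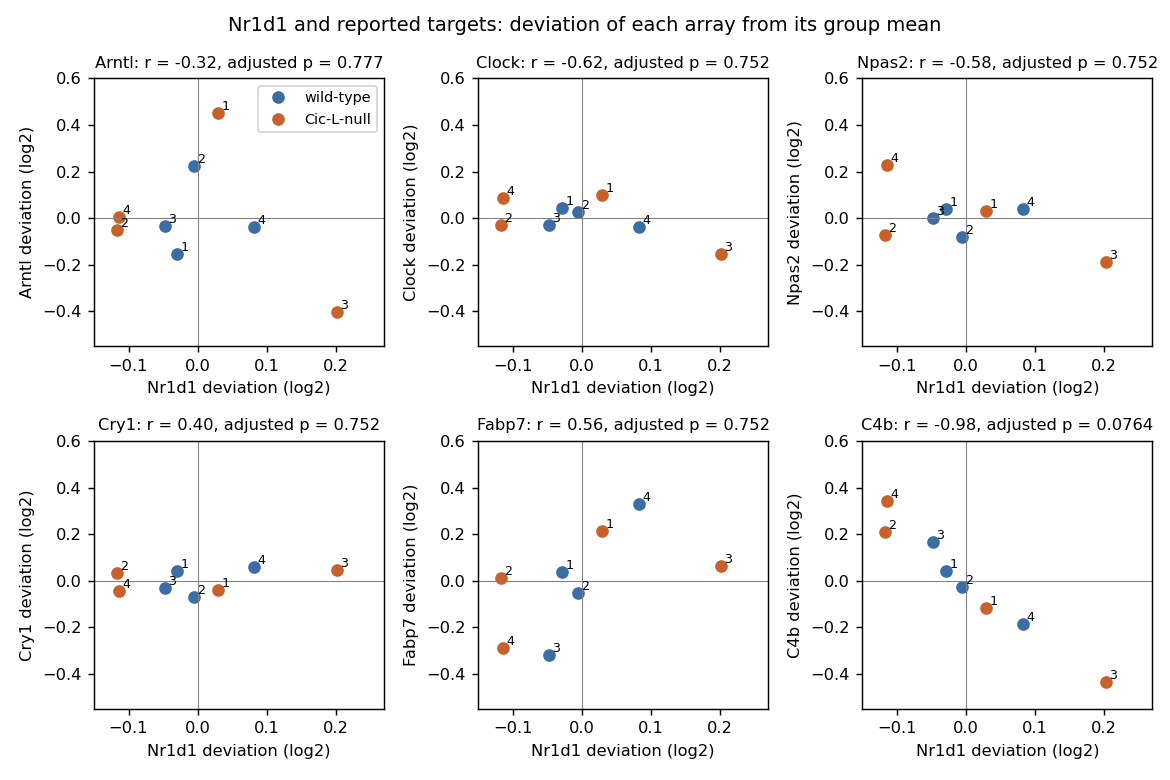
Deviation of each array from its group mean, in log2 units, for Nr1d1 (x axis) and 6 reported targets (y axis); blue points are wild-type and orange points Cic-L-null arrays, numbered by replicate, with the adjusted exact permutation p above each panel. C4b falls along a line at r = -0.98, but r was -0.28 when probe sets were combined by their median. The negative slopes of Arntl, Clock and Npas2 rest on Cic-L-null replicate 3.

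The members were also compared with each other in the same way, over the 15 pairs not covered above. None passed after adjustment and 1 had an unadjusted p under 0.05. This was Clock with Rorb, at r = 0.64 and rho = 0.83, with an exact permutation p of 0.00868 (adjusted 0.13) and 0.0122 (adjusted 0.182), and r was 0.50 without Cic-L-null replicates 1 and 3. Arntl and Clock had r = 0.77 and rho = 0.64, with an exact permutation p of 0.127 (adjusted 0.472) and 0.156, and r of 0.18 without Cic-L-null replicates 1 and 3. Nr1d1 and Nr1d2 had r = 0.49 and rho = 0.48, with an exact permutation p of 0.384 (adjusted 0.576) and 0.368, and r of -0.027 without wild-type replicate 4 and Cic-L-null replicate 3.

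The genes whose deviations ran most like those of a member were sought among 14009 genes above the dim limit, over 8 arrays. Each of the 7 members had a gene at r of at least 0.966, and with 8 arrays these values are given as a description; the points share arrays and their normalisation. Nr1d1 was nearest to Elobl (r = 0.984), Prss51 (0.974) and Enpp1 (0.962), and most opposed to Mro (-0.983), C4b (-0.978) and Mpeg1 (-0.976). C4b, which was on the list of targets, was the second most opposed of all genes searched. This rank rests on the same r as above, which was -0.28 when probe sets were combined by their median, so it adds nothing to it. Nr1d2 was nearest to Ngdn (0.974), Camk2b (0.97) and Ebf2 (0.97), and most opposed to Gpsm3 (-0.971), Zdhhc22 (-0.966) and Rcan3 (-0.965).

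Npas2 was nearest to Abca2 (0.983), Ankub1 (0.968) and Pla2g4b (0.967), and among its 3 most opposed genes, with Barhl1 (-0.984) and Klhl26 (-0.978), was the clock gene Nfil3 (-0.975). Arntl was nearest to Kcnk1 (0.977), Gimap1 (0.974) and Abca4 (0.969), and most opposed to Sh2b3 (-0.94), Crat (-0.937) and Hcar1 (-0.933). Clock was nearest to Lats1 (0.966), Rpl12 (0.932) and Mdm2 (0.928), and most opposed to Slc16a10 (-0.958), Ptafr (-0.953) and Rsph6a (-0.951). Rora was nearest to Cdk13 (0.988), Sec61g (0.987) and Pxk (0.976), and most opposed to Col26a1 (-0.968), Pnma1 (-0.967) and Insl3 (-0.967). Rorb was nearest to Hp1bp3 (0.988), Tcf12 (0.985) and Pik3r1 (0.984), and most opposed to Smim1 (-0.983), Sohlh1 (-0.971) and Cartpt (-0.969).

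Cell content and array quality were examined once for all members. Gene values correlated between 0.9913 and 0.9954 over all pairs of arrays. Markers of granule cells (mean log2 level 11.82 to 11.93 in wild-type, 11.92 to 11.94 in Cic-L-null arrays), Purkinje cells (10.80 to 10.99 and 10.92 to 10.98) and molecular layer interneurons (9.91 to 10.09 and 10.03 to 10.12) were present in every array, and none of their measured genes (9, 9 and 5) was called. Markers of mature oligodendrocytes were below 0 in 6 of 6 genes (10.70 to 10.78 in wild-type, 10.53 to 10.64 in Cic-L-null arrays, without overlap). Choroid plexus markers ran from 7.90 to 8.31 in wild-type and from 7.26 to 8.32 in Cic-L-null arrays, where the lowest array was Cic-L-null replicate 3, which also had the most extreme clock values. That array was the single mutant without Y-linked signal (Kdm5d, Uty and Eif2s3y), which wild-type replicates 2 and 3 lacked too. With these genes as a covariate the difference of Nr1d1 was 0.68 and that of Npas2 -0.44. The part of cell content in the values of the 7 genes was not tested.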

How the data were processed

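RNA of 8 cerebellum samples was measured on 8 arrays. The deposited values are log2 expression values per probe set, which the authors made by RMA; the submitters' processing notes name the Affymetrix Power Tools as software. Its version and the build are not stated in the sources at hand. Of 241576 probe sets, 212097 name a single gene in the platform annotation, which is old; symbols were updated through GRCm38.p6 names. A gene value is the mean of its probe sets, which gave 20352 genes. Genotypes were compared by lmFit and eBayes (no trend) of limma 3.58.1, run under R 4.3.3, and a gene was called at a Benjamini-Hochberg adjusted p under 0.05. The fit was tested on simulated data. The dim limit of 6.21 is the 95th percentile of 985 olfactory receptor genes. Relations used deviations from group means, and the 2 arrays left out of a relation were those with deviations farthest from the median, a choice that replaced one by raw level after the values were seen. The number of arrays limits the precision. The members, gene lists and tests were chosen with earlier results of these data known.

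Named genes were the 7 members, the called genes and up to 4 genes of smallest p of each clock list, and the 3 most and least alike genes of each member. Wee1, Bhlhe41, Ciart, Tef, Nfil3, Lpl, Ulk1 and the glial markers were added after their values were seen. Alternatives changed how probe sets were combined, dim signal, centring, the variance model, weights of arrays, blocking by replicate number, adjustment for Y-linked signal, and each array left out in turn. Leaving out arrays for the target lists and for the calls of Fabp7, Per2, Per3 and Dbp was added after the data were seen, as were the 15 pairs of members.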

Additional observations from a re-analysis of the deposited data

Results flagged for a closer look

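Among 38 groups of 4 arrays examined over 19 genes, 2 held an array far from the other 3 by Dixon's test, and chance flags about 1 in 20 groups. Both were Cic-L-null replicate 3 in E-box targets. Dbp lay at 9.86 there against 9.46 to 9.52 in the other 3 mutants, and Bhlhe41 at 9.25 against 8.84 to 8.89. The same array had the highest Nr1d1 and Nr1d2 and the lowest Arntl, Clock and Npas2 of all 8, but no gap among the 7 genes reached the limit.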

How the results depend on the processing

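All 7 differences kept their sign under all 13 alternatives tried for them, a sign that leaving out an array cannot change where groups lie apart. Nr1d1 ranged from 0.59 to 0.70, Nr1d2 from 0.29 to 0.47, Arntl from -0.56 to -0.28, Clock from -0.24 to -0.16, Rora from 0.13 to 0.18 and Rorb from 0.0017 to 0.093. Npas2 ranged from -0.47 to -0.19, the latter with the median of its probe sets; the cause was not tested. The count of called members, 1 in all, was 0 when probe sets were combined by their median (adjusted p of Nr1d1 0.0635 with limma) and 0 with the replicate block (0.0772), and from 0 to 1 with arrays left out (0.0264 to 0.076). It was 1 under the other 6 settings, where the adjusted p went as low as 0.000538. Titles number the replicates 1 to 4 in both groups, but the deviations of same-numbered arrays correlated at 0.219, 0.000325, 0.207 and 0.0262 and not every array was closest to its own number, so the replicate block gives no pairing by design. No REV-ERB and target pair passed after adjustment in any setting tested; with 7 arrays the smallest exact p is 0.00694, so a single pair could not pass over 22. The count of pairs with r below 0 was 14 in all, 13 to 15 under the other settings, the replicate block (15, values only) among them, and 12 to 16 with arrays left out. Ddx3y was not measured, so the covariate held Kdm5d, Eif2s3y and Uty. The counts for E-box targets with arrays left out stand beside them above.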
